A study of Mus musculus with 4 samples.

Results

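Transcripts of 10 integrin chains were followed in regulatory T (Treg) cells with and without the deubiquitinase CYLD: Itgae, Itgb7, Itga4, Itga6, Itgb1, Itgav, Itgb8, Itgb3, Itgal and Itgb2. They are 10 of 19938 genes measured by a probe set annotated with exactly 1 gene symbol, and each of the 10 was read by a single such probe set. The CYLD KO cells came from C57Bl6, Cyld fl/fl Foxp3-yfp-cre mice (2 arrays) and the WT cells from C57Bl6, Cyld+/+ Foxp3-yfp-cre mice (2 arrays), all aged 6 to 8 weeks. Both genotypes therefore carried the Cre recombinase and yellow fluorescent protein (YFP) driven by Foxp3, and YFP-positive cells were sorted in both. The labels name spleen with lymph nodes as the tissue in one field and spleen alone in another. Total RNA was hybridised to Affymetrix arrays, 1 sample per array, and each value was read as a linear intensity, a scale inferred from the values. No label says that the 2 arrays of a genotype came from separate mice, so p-values measure only the spread between these samples, which may be technical.

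Integrins are cell surface receptors made of an alpha and a beta chain, and neither chain reaches the surface as a working receptor without a partner. Signals inside the cell switch them to a high-affinity shape through talin and kindlin, which bind the tail of the beta chain. In T cells the beta2 integrin LFA-1 (Itgal with Itgb2) binds ICAM molecules, the alpha4 integrins (Itga4 with Itgb7 or Itgb1) bind MAdCAM-1 and VCAM-1 on vessels, and alphaE beta7 (Itgae with Itgb7, the marker CD103) binds E-cadherin on epithelium. Alphav beta8 (Itgav with Itgb8) releases active TGF-beta from its latent complex, a task for which Treg cells are known.

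Of the 10 chains, 3 were higher in CYLD KO cells (Itgae, Itgb8 and Itgb1) and 1 was lower (Itga6), at an adjusted p under 0.05 in limma. Over all 13956 genes tested, 4.79% were higher and 3.50% lower by the same rule, 8.29% in all. The other 6 chains did not pass. The median log2 fold change of the 10 was 0.17, beside -0.02 for all genes tested. The CYLD KO arrays lay above both WT arrays for 6 of the 10 chains and below both for 2, while 22.5% of all tested genes lay above and 26.2% below, so that 48.7% did not overlap. The chains were listed with earlier results of these data known, so no test over the list is given. All 10 passed the filter on dim genes. These calls rest on a spread that limma pooled over all genes. A limma fit with each gene's own spread called 0 of the 10 and 0 of all genes, with 4 of the 10 and 1813 genes at an unadjusted p under 0.05. Those 4 were Itga6, Itgae, Itgal and Itgb1, while Itgb8 had an unadjusted p of 0.078 in that fit. In sorted bulk samples, fewer cells of a type and less RNA per cell cannot be told apart, which holds for every gene that follows.

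**Figure D1:**
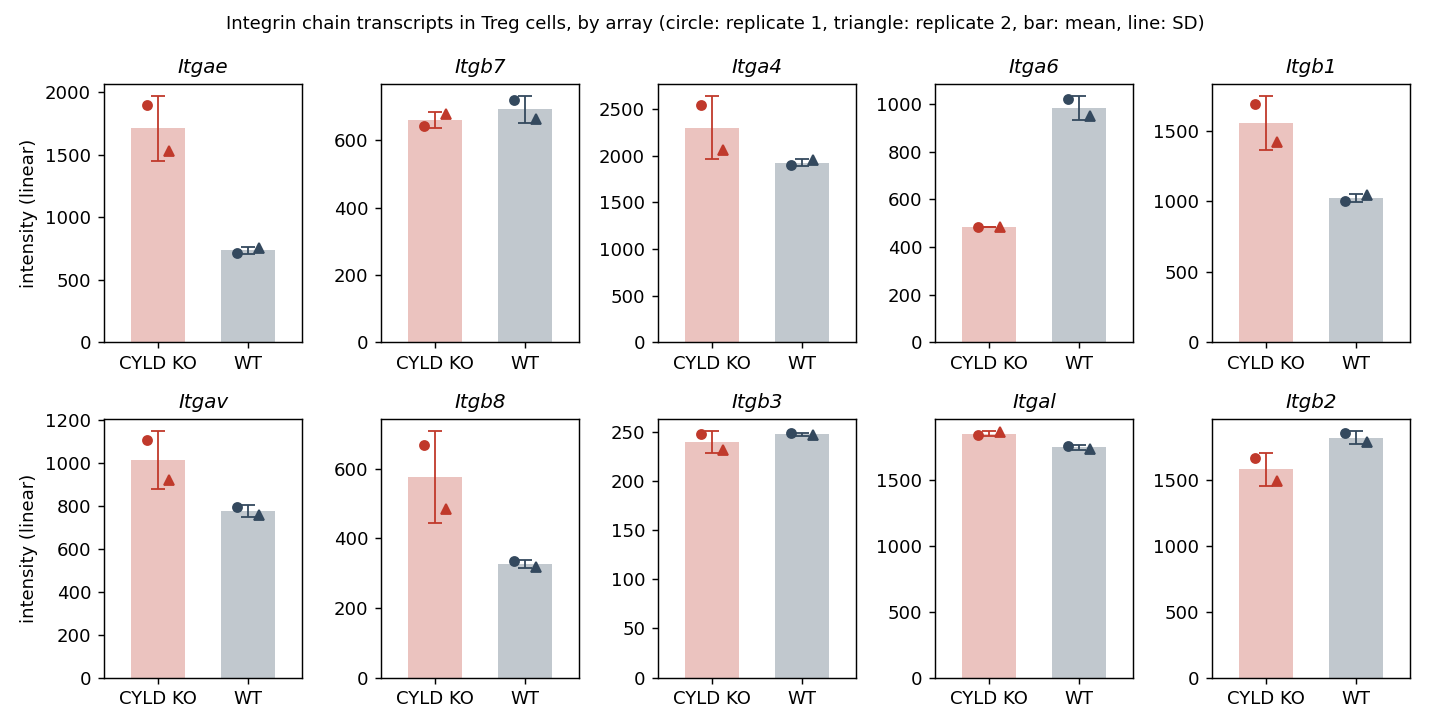
Linear intensity of each of the 10 integrin chain transcripts on every array, CYLD KO left of WT, with the mean as a bar and the SD as a line (n = 2). Itgae, Itgb8 and Itgb1 sit higher in CYLD KO and Itga6 lower, with no overlap between the genotypes. Itgav, Itga4, Itgal and Itgb2 do not overlap either, as is so for 48.7% of all tested genes.

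Cyld, the targeted gene, read 284 and 218 on the CYLD KO arrays, against 524 and 502 on the WT arrays (log2 fold change -1.04 ± 0.17, SE, limma adjusted p = 8.89e-08). The deleted stretch is not named in the labels, and the probe set may lie outside it. Array medians were 99.0 to 105, and the deposited values ran from 26.6 to 7205. The Treg label was checked with 9 marker genes, 8 of which had a probe set. Foxp3, the defining transcription factor, read 1697 and 1553 in CYLD KO and 2016 and 1881 in WT, and Cd3e, a chain of the T cell receptor complex, read 3615 and 2978 in CYLD KO and 3240 and 3264 in WT. None of the 8 passed the test, with 0 higher and 1 lower (Il2ra) at an unadjusted p under 0.05. Of all tested genes, 8.29% passed in limma, and 9.77% were higher and 10.2% lower at that unadjusted p. CYLD KO replicate 2 stood apart in 2 ways. Its Y-linked Kdm5d read 127, against 268 on CYLD KO replicate 1 and 271 and 275 on the WT arrays. In the same order, Y-linked Uty read 132, against 283, 225 and 220, and Eif2s3y 98.9, against 221, 253 and 219. Xist, from the X chromosome, went the other way, at 2321 against 1630, 1306 and 1403. The part of this sex-linked difference in the integrin results was not tested. The summed level of 9 proliferation genes was 7254 on CYLD KO replicate 2, against 4310 on CYLD KO replicate 1 and 2954 and 2703 on the WT arrays. All 9 were also higher in CYLD KO as a genotype, with no overlap and a median log2 fold change of 0.94. Of all tested genes, 4.79% were higher in limma, and 22.5% had both CYLD KO arrays above both WT arrays. The part of the proliferation genes in the integrin results was not tested. Results are therefore given also without 1 array where that lost the call of an integrin chain, ligand or adaptor. Calls gained that way enter only the counts given at the end.

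Among the chains of the alphaE beta7 integrin the alpha chain rose and the beta chain did not pass the test. Itgae, the alphaE chain that defines CD103-positive T cells, read 1896 and 1530 in CYLD KO, against 717 and 758 in WT. Both CYLD KO arrays were far above both WT arrays. On the log2 scale the rise was 1.21 ± 0.17 (SE, adjusted p = 2.04e-10), a 2.31-fold difference with a 95% interval of 1.83 to 2.91, the 59th largest rise among the genes tested. Without CYLD KO replicate 1 it was 1.05, and without CYLD KO replicate 2 it was 1.36. In CYLD KO this transcript averaged 1713 ± 259, and in WT 737 ± 29.1 (SD, n = 2 each). Itgb7, the partner of both alphaE and alpha4, read 643 and 677 in CYLD KO and 720 and 664 in WT. The genotypes overlapped, and the log2 fold change was -0.07 with a 95% interval of -0.40 to 0.27 (adjusted p = 0.869), so a difference of the size seen for Itgae lies outside that interval. CD103 is also carried by CD8 T cells and by some dendritic cells. Cd8a, which defines the first, read 120 and 92.5 in CYLD KO and 101 and 95.3 in WT, near the array medians in both genotypes. Cd8b1, the other CD8 chain, was brighter, at 469 and 426 in CYLD KO and 362 and 405 in WT, with no overlap and a log2 fold change of 0.22 that did not pass (adjusted p = 0.491). Of the 4 tested markers of CD8 T and natural killer cells, 1 was higher in limma, beside 4.79% of all tested genes. It was the transcription factor gene Eomes (297 and 342 in CYLD KO, 109 and 98.9 in WT). The 6 markers of that list summed to 1100 and 1058 in CYLD KO and to 783 and 795 in WT, a gap that lies mostly in Eomes. For dendritic cells 0 of 4 tested markers passed in limma, with 0 at an unadjusted p under 0.05. Of all tested genes, 8.29% passed in limma, and 9.77% were higher and 10.2% lower at that unadjusted p. The 6 dendritic cell markers summed to 628 and 654 in CYLD KO and to 585 and 608 in WT. The part of these cells in the Itgae result was not tested.

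In alpha4 beta1, the beta chain rose and the alpha chain did not pass. Itga4, which carries T cells into gut and inflamed tissue, read 2541 and 2060 in CYLD KO and 1898 and 1955 in WT. Both CYLD KO values were higher, CYLD KO replicate 2 by little, and the log2 fold change of 0.25 (95% interval -0.08 to 0.58) did not pass (adjusted p = 0.429). Itgb1, the beta1 chain shared by the receptors for fibronectin, laminin and VCAM-1, read 1689 and 1416 in CYLD KO, against 1000 and 1040 in WT. The genotypes were clearly apart, with a log2 fold change of 0.60 ± 0.17 (SE, adjusted p = 0.00796), or 1.52-fold with a 95% interval of 1.20 to 1.91. This call was lost without CYLD KO replicate 1 (adjusted p = 0.0630), without WT replicate 1 (0.248) and without WT replicate 2 (0.143), while the log2 fold change stayed between 0.47 and 0.73 over all alternatives.

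Itga6 went the other way from Itgb1, with which it forms a laminin receptor on T cells. It read 483.2 and 482.9 in CYLD KO, against 1019 and 948 in WT. The CYLD KO arrays gave nearly the same value, and both were below WT by a wide margin. The log2 fold change was -1.02 ± 0.17 (SE, adjusted p = 1.60e-07), a level 0.492 times that of WT with a 95% interval of 0.391 to 0.620, the 40th largest fall. Leaving out any 1 array left it between -1.07 and -0.97, with adjusted p-values up to 0.00259. Platelets also carry this chain. Of 5 platelet markers with a probe set, 2 were tested and did not pass, while 8.29% of all tested genes passed. Neither of the 2 overlapped between genotypes, as was so for 48.7% of all tested genes. Treml1 read 242 and 214 in CYLD KO and 189 and 206 in WT, and Gp9 read 122 and 117 in CYLD KO and 86.4 and 111 in WT. Pf4, a defining platelet gene, read 49.4 and 55.3 in CYLD KO and 53.2 and 51.3 in WT, near the lowest values on the arrays. The 5 summed to 556 and 495 in CYLD KO and to 440 and 503 in WT, and their part in the Itga6 result was not tested.

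Both chains of the TGF-beta-activating integrin alphav beta8 were above WT on each CYLD KO array, but only the beta chain passed. Itgb8, the beta8 chain, which pairs with alphav alone, read 668 and 483 in CYLD KO, against 334 and 318 in WT. The lower CYLD KO array was still above both WT arrays. Its log2 fold change was 0.80 ± 0.17 (SE, adjusted p = 1.03e-04), or 1.74-fold with a 95% interval of 1.38 to 2.19. The value was 0.57 without CYLD KO replicate 1 and 1.03 without CYLD KO replicate 2, with adjusted p-values of 0.0224 and 4.26e-06. Itgav, the alphav chain, read 1110 and 921 in CYLD KO and 798 and 757 in WT. These did not overlap either, but the log2 fold change of 0.38 (95% interval 0.05 to 0.71) had an adjusted p of 0.173. Itgb3, another beta chain that pairs with alphav, read 247 and 232 in CYLD KO and 248 and 246 in WT. The genotypes overlapped, with a log2 fold change of -0.05 (95% interval -0.38 to 0.29, adjusted p = 0.911).

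The chains of LFA-1, the main adhesion receptor between T cells and antigen-presenting cells, did not pass the test. Itgal, the alphaL chain, read 1838 and 1861 in CYLD KO and 1757 and 1731 in WT. The arrays of each genotype lay close together, and the gap between genotypes was small, a log2 fold change of 0.08 with a 95% interval of -0.25 to 0.42 (adjusted p = 0.831). Itgb2, the beta2 chain, read 1669 and 1488 in CYLD KO and 1853 and 1784 in WT. Here the CYLD KO values were the lower ones, with a log2 fold change of -0.21 (95% interval -0.54 to 0.13, adjusted p = 0.530).

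The CYLD KO arrays themselves differed in these genes. For 8 of the 10 chains CYLD KO replicate 1 read higher than CYLD KO replicate 2, including all 3 that rose, while 53.8% of all tested genes did so. The median difference of replicate 1 from replicate 2 was 0.21 on the log2 scale over the 10 chains, 0.31 over the 3 that rose, and 0.03 over all tested genes. The proliferation genes showed the opposite order of the CYLD KO arrays. The part of this difference in the integrin results was not tested beyond leaving out each array.

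Because an integrin needs both chains, the log2 ratio of the alpha to the beta transcript was taken within each array and set against the WT mean of the same pair, for 8 pairs. Only the change of a ratio can be read, since different probe sets do not share a scale. With 2 arrays against 2 the exact two-sided permutation test cannot go below p = 0.333, so these ratios are described without a call. Itgae over Itgb7 was 1.47 and 1.08 above the WT mean on the CYLD KO arrays, while the WT arrays lay at -0.10 and 0.10. The difference was 1.27 ± 0.22 (SE from the 4 ratios), so that the ratio of alphaE to beta7 transcript was 2.42 times that in WT. Itga6 over Itgb1 moved further, by -1.62 ± 0.15, with CYLD KO arrays at -1.75 and -1.50 and WT arrays at 0.08 and -0.08, so that the ratio was 0.325 times that in WT.

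The other 6 pairs shifted by smaller amounts. Itga4 over Itgb1 was at -0.33 and -0.38 in CYLD KO and within 0.01 of the WT mean on both WT arrays. Its difference of -0.35 ± 0.03 was the one with the smallest spread between arrays, and quantile normalization made it -0.30. Itgav over Itgb8 changed by -0.42 ± 0.10 and Itgav over Itgb1 by -0.22 ± 0.07. Itgav over Itgb3 changed by 0.43 ± 0.09 and Itgal over Itgb2 by 0.29 ± 0.09. For Itga4 over Itgb7 the difference was 0.31 ± 0.20, with CYLD KO arrays at 0.50 and 0.13 and a WT array at 0.08. The genotypes did not overlap in any of the 8 pairs, but the pairs reuse chains (Itgb1 and Itgav stand in 3 each), and of single genes 48.7% did not overlap.

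**Figure D2:**
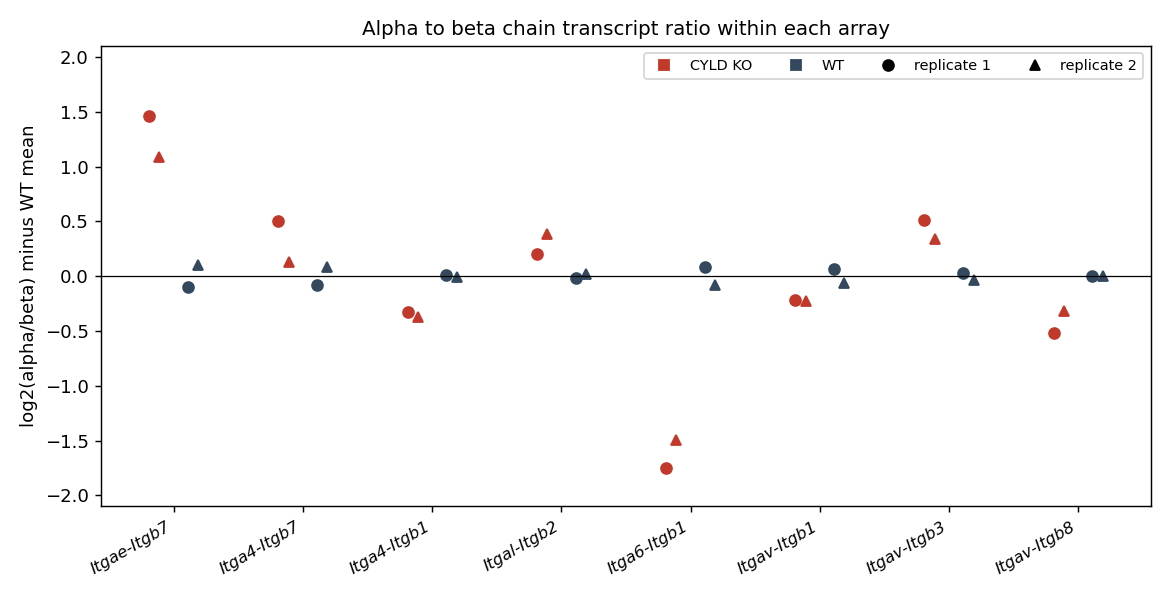
Log2 ratio of alpha to beta chain intensity within each array, minus the WT mean of that pair, for 8 integrin pairs, CYLD KO (red) left of WT (dark). Itgae over Itgb7 stands 1.27 above WT and Itga6 over Itgb1 stands 1.62 below, and the other mean shifts are under 0.5.

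Integrin chains outside the 10 were dim. The 16 others all averaged between 47.5 and 127 in intensity over the 4 arrays, near the low end of the scale, where folds can be understated. No detection call is given in the sources used here. Of the 11 that passed the filter, 0 were higher and 1 was lower in limma, or 9.09% called, close to the 8.29% of all tested genes. The counts were the same at an unadjusted p under 0.05, where 9.77% of all tested genes were higher and 10.2% lower. The median log2 fold change was -0.01. The 1 lower chain was Itga9, which pairs with beta1, at 75.0 and 82.7 in CYLD KO, against 132 and 118 in WT (log2 fold change -0.66, adjusted p = 0.00252). Its call was lost without WT replicate 1 (adjusted p = 0.233). Itga2, Itgb4, Itgb5 and Itga7, the brightest of the rest, had log2 fold changes of 0.05, -0.01, -0.25 and 0.01. The myeloid chain Itgam, chosen after its values were seen, read 83.5 and 118 in CYLD KO and 87.4 and 98.8 in WT. Another 3 probe sets list Itgam together with the ribosomal gene Rpl35 and were left out.

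**Figure D3:**
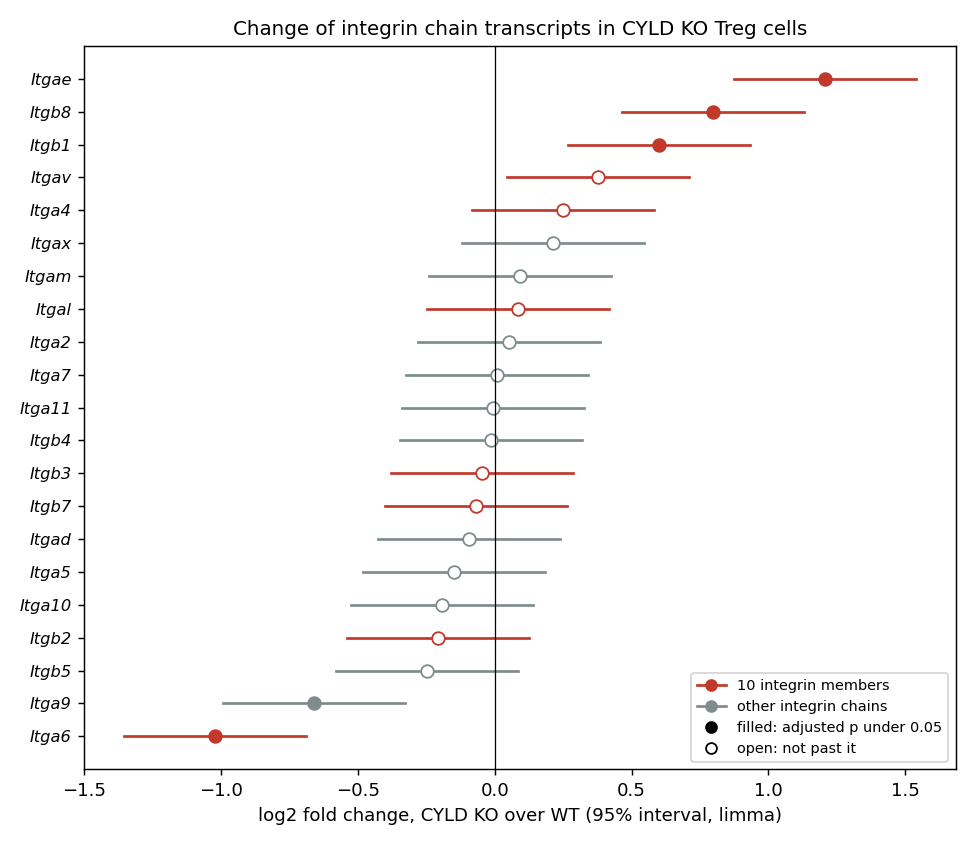
Log2 fold change of CYLD KO over WT with its 95% interval from limma for the 10 chains (red) and the 11 other integrin chains that passed the filter (grey), with filled points for an adjusted p under 0.05. Itgae at 1.21 and Itga6 at -1.02 are the ends of the range.

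The promoters of Itgb8 and Itgb1 are shown because both of these beta chains rose. Itgae, Itga6, Itgal, Itgb2 and Itgb3 had no promoter sequence in the source used here and were not searched. RefSeq's table for build GRCm38.p6 gives the 250 bases before the transcription start, and capitals mark matches to GTCTG, the core that Smad proteins of the TGF-beta pathway bind, on either strand.
Itgb8 (chr12:119238277-119238526, minus strand): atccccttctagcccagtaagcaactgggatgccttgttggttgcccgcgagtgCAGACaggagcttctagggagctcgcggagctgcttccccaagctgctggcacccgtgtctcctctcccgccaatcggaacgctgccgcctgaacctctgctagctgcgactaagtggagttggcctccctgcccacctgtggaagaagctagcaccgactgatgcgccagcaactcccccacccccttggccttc
Itgb1 (chr8:128685404-128685653, plus strand): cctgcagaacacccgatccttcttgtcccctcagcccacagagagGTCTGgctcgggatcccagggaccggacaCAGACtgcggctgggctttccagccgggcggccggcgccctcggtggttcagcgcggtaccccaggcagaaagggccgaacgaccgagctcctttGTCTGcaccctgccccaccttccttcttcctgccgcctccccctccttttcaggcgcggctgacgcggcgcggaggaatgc
Itgb8 holds 1 match and Itgb1 holds 3. Chains that did not pass held it too, Itgb7 with 2 matches and Itga4 with 1, Itgav had 0, and 42.2% of 32851 promoter windows of the same length hold at least 1. The NF-kB pattern, GGG and CC with 5 bases of any kind between them, had 0 matches in either window (45.8% of all windows hold it), and the RUNX core TGTGGT also had 0 (14.0% of all windows). Itgb7 and Itgav, which did not pass, each had 1 NF-kB match, and Itga4 had 1 RUNX match. The patterns do not overlap each other in these windows, and a match is a description of letters, not of binding.

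Ligands of these integrins were read in the same sorted cells. Of 15 tested among 21 listed, 3 were higher and 2 lower, beside 4.79% and 3.50% of all genes tested, with a median log2 fold change of 0.10. Icam1, the LFA-1 ligand that activated T cells also carry, read 546 and 469 in CYLD KO, against 311 and 316 in WT (log2 fold change 0.69, adjusted p = 0.00146). Both CYLD KO arrays were well above WT, though the call was lost without WT replicate 1 (adjusted p = 0.10) and without WT replicate 2 (0.0756). Lamc1, a laminin chain, rose by a log2 fold change of 0.75 (adjusted p = 3.32e-04; 0.121 without WT replicate 2). Madcam1, the ligand of alpha4 beta7 on gut vessels, stayed dim at 117 and 106 in CYLD KO, against 62.9 and 74.4 in WT (log2 fold change 0.70, adjusted p = 0.00122; 0.238 without WT replicate 1).

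Vcam1, the ligand of alpha4 beta1, fell to 285 and 327 in CYLD KO, against 683 and 710 in WT (log2 fold change -1.19, adjusted p = 4.74e-10). Vcam1 is also made by splenic macrophages. All 10 markers of these cells, Vcam1 itself among them, passed the test, 9 of them lower, beside 3.50% of all tested genes lower. Without Axl, a receptor kinase that was the higher one (1919 and 2061 in CYLD KO, 963 and 999 in WT), the 9 summed to 878 and 1063 in CYLD KO and to 2216 and 2037 in WT, Vcam1 included. The part of macrophage RNA in the Vcam1, Itga9 and Itga6 results was not tested. Icam2, another LFA-1 ligand, read 132 and 106 in CYLD KO and 173 and 178 in WT (log2 fold change -0.56, adjusted p = 0.0162). That call was lost without CYLD KO replicate 2, WT replicate 1 or WT replicate 2 (adjusted p = 0.195, 0.232 and 0.275). Pecam1, a marker of endothelium also found on white blood cells, was lower as well (431 and 401 in CYLD KO, 665 and 562 in WT). The endothelial marker Cdh5 was at 46.0 and 54.9 in CYLD KO and 51.5 and 46.6 in WT, near the lowest values on the arrays. Vtn, Lama2, Icam5 and Icam4, the brightest ligands that did not pass, had log2 fold changes of -0.16, 0.26, -0.04 and -0.08. Cdh1, the E-cadherin bound by alphaE beta7, chosen after its values were seen, read 92.5 and 78.2 in CYLD KO and 71.3 and 79.2 in WT and did not pass.

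The adaptors listed raise or restrain integrin activation or tie integrins to actin. Of 32 tested among 38 listed, 0 were higher and 4 lower in limma, or 12.5% called, beside 8.29% of all tested genes. At an unadjusted p under 0.05, 2 were higher and 9 lower, while 9.77% of all tested genes were higher and 10.2% lower. The median log2 fold change was -0.13. Actn1, the actin crosslinker alpha-actinin, read 550 and 626 in CYLD KO, against 1488 and 1479 in WT (log2 fold change -1.34, adjusted p = 7.55e-13). Both CYLD KO arrays were far below WT. Rasgrp2, the exchange factor that loads the small GTPase Rap1 upstream of talin, read 281 and 343 in CYLD KO, against 563 and 506 in WT (log2 fold change -0.78, adjusted p = 1.63e-04; 0.0734 without WT replicate 1). Its relative Rasgrp1 fell by 0.50 on the log2 scale (adjusted p = 0.0424), a call that held in only 8 of 15 alternatives with a pooled spread. It was lost with quantile normalization (adjusted p = 0.124), median centring (0.0704), a robust prior (0.0515), the replicate number as a block (0.0626), and without CYLD KO replicate 2 (0.108), WT replicate 1 (0.535) or WT replicate 2 (0.241). Cytip, which holds the LFA-1 regulator cytohesin-1 away from the membrane, read 995 and 904 in CYLD KO, against 1506 and 1516 in WT (log2 fold change -0.67, adjusted p = 0.00207). Leaving out WT replicate 1 or 2 took Cytip to adjusted p-values of 0.101 and 0.103.

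The remaining 28 adaptors did not pass. The brightest of them were Stk4, a kinase that acts with the adaptor RAPL on LFA-1 (log2 fold change -0.35), Actn4 (0.16), the cytohesin gene Cyth1 (-0.28) and Sipa1, which switches Rap1 off (-0.02). Tln1 and Fermt3, chosen after their values were seen, encode talin and the kindlin of blood cells. Tln1 read 1071 and 986 in CYLD KO and 1257 and 1025 in WT, and Fermt3 read 659 and 669 in CYLD KO and 652 and 542 in WT. Their log2 fold changes were -0.14 and 0.16.

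In the list of latent TGF-beta, its carriers and receptors, the pathway on which alphav beta8 acts and to which Itgae responds in T cells, 0 of 18 tested genes were higher and 0 lower in limma, with 0 higher and 3 lower at an unadjusted p under 0.05. Of all tested genes, 4.79% were higher and 3.50% lower in limma, and 9.77% higher and 10.2% lower at that unadjusted p. Tgfb1, the ligand, read 1427 and 1602 in CYLD KO and 1373 and 1353 in WT (log2 fold change 0.15, adjusted p = 0.673). Lrrc32, which encodes GARP, the anchor of latent TGF-beta on activated Treg cells, read 833 and 1035 in CYLD KO and 1266 and 1093 in WT (log2 fold change -0.34, adjusted p = 0.235). Both CYLD KO arrays were below both WT arrays for Lrrc32. Ski, a repressor of Smad signalling, had a log2 fold change of -0.39, and Runx3, a transcription factor that acts on Itgae, 0.22, and neither passed.

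**Figure D4:**
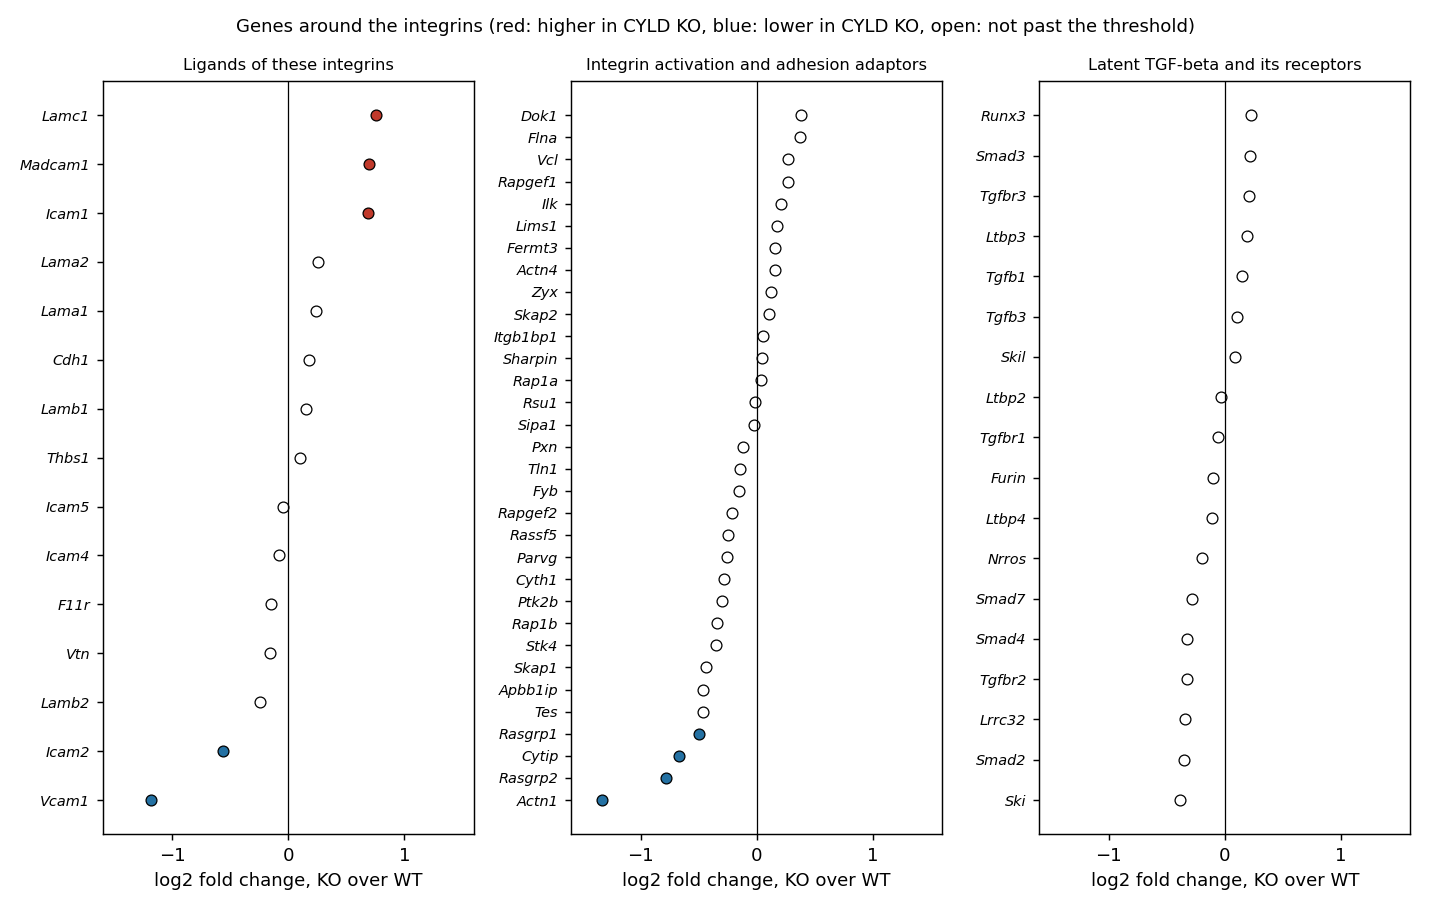
Log2 fold change of CYLD KO over WT for the tested genes of 3 lists, ordered by value, in red where higher and blue where lower at an adjusted p under 0.05. Ligands hold 3 higher and 2 lower genes, adaptors 4 lower genes led by Actn1 at -1.34, and the TGF-beta list none.

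The genes whose pattern over the 4 arrays was most like that of Itgae were Smpdl3b, Mid2, Myo1f, Dgat2 and Chst11. Likeness was the distance between log2 profiles after each gene's mean was subtracted, from 0.0920 for Smpdl3b to 0.110 for Chst11, among 13027 genes. Smpdl3b, a sphingomyelin phosphodiesterase-like protein, read 248 and 197 in CYLD KO and 86.9 and 91.6 in WT. Mid2 is a ubiquitin ligase, Dgat2 makes triglycerides and Chst11 adds sulfate to chondroitin. Myo1f, a class I myosin of blood cells, read 698 and 518 in CYLD KO and 264 and 263 in WT. All 5 share with Itgae a higher CYLD KO replicate 1. With 4 arrays, such likeness describes the genotype difference and the gap between the CYLD KO arrays and little else.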

How the data were processed

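The deposited values, for 35557 probe sets on 4 arrays, were taken as linear intensities from their range, since no source used here states their scale. Biotin-labelled cRNA was made by the Affymetrix procedure, per the labels' protocols, and the authors' summary, background correction and scaling are not given in the sources used here. Gene names come from the platform's annotation of 2016, and the 21789 with exactly 1 symbol were used. Values were converted to log2(value + 1). The added 1 changed little, since the lowest value was 26.6, and Itgb8 and Cyld had log2 fold changes of 0.80 and -1.04 with it and without it. Fold changes near the low end of the scale can still be understated. The brightest probe set by mean stood for its gene, genes at or under the 30th percentile of mean log2 level were dropped, and the remaining 13956 were tested with limma 3.58.1 in R 4.3.3 (lmFit, eBayes, Benjamini-Hochberg, threshold 0.05). Every adjusted p is from limma unless another test is named. limma's prior took all weight, so the full fit gives all genes 1 common SE of 0.17. The script was tested on simulated data. The number of arrays, 2 per genotype, limits the precision.

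The members, gene lists and rule for named genes (all 10 chains and Cyld, and from each list up to 6 genes past the threshold and the 4 brightest others) were chosen with earlier results of these data known. Alternatives covered scaling, pseudocount, filter, variance model, array weights, probe set choice, the replicate number as a block and leaving out each array. Protein sequences were not used here.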

Additional observations from a re-analysis of the deposited data

How the results depend on the processing

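All 10 chains kept their direction under the 16 alternatives. The calls of Itgae, Itgb8 and Itga6 were lost under 1, a fit with no pooling of variances over genes (adjusted p = 0.304, 0.439 and 0.227). That fit called 0 genes, 0 integrin chains and 0 genes of the 4 lists in either direction, with 1813 genes, 4 of the 10 chains and 19 genes of the lists among them, at an unadjusted p under 0.05. The 4 chains were Itga6, Itgae, Itgal and Itgb1, and Itgb8 was not among them. Itgb1 and Cyld had adjusted p-values of 0.369 and 0.342 there. The calls thus rest on a spread shared by all genes. Leaving out each array gave 2 to 3 higher and 1 lower chain each time, 254 to 919 higher and 118 to 767 lower genes in all, 0 to 1 higher and 1 to 6 lower adaptors, 1 to 3 higher and 1 to 2 lower ligands, and 0 to 1 higher and 0 to 1 lower other integrin chains. An intensity trend in the variance gave 8 lower adaptors and 1 lower gene of the TGF-beta list, and a filter at the median left 3 other integrin chains with 0 lower. Itgb1 was lost at log2 fold changes of 0.47 to 0.63 in 3 of the 4 fits that left out an array. With the replicate number as a block, 603 genes were higher and 428 lower, and 3 chains were higher and 1 lower. The numbers share no stated batch, and the replicate differences of the genotypes correlated at -0.09 over genes, so no pairing was assumed.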
